A study of Mus musculus with 20 samples.

Results

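Expression of 7 genes that respond to the fatty acid receptors PPAR alpha and PPAR delta was followed in mouse heart ventricles: Acot1, Acot2, Ucp2, Ucp3, Angptl4, Ehhadh and Vnn1. They were chosen by name, as known PPAR targets outside fatty acid uptake, carnitine transport and mitochondrial oxidation, and are 7 of the 21705 genes measured. Poly(A) RNA of 20 ventricles was sequenced, 5 from each of 4 groups. Knockout mice (Acsl1H-/-) and littermate controls (Acsl1flox/flox) were C57Bl/J6 males, and both genotypes received tamoxifen at 75 mg/kg on 4 days at an age of 6 to 8 weeks. Mice of each genotype were injected daily for 2 weeks with vehicle or with rapamycin at 1 mg/kg, and ventricles were collected 2 weeks after tamoxifen. The groups are called control vehicle, knockout vehicle, control rapamycin and knockout rapamycin. Neither the Cre line nor the cells in which it acts are given by the labels, so an effect of the Cre and the loss of Acsl1 cannot be told apart, and control hearts carry the floxed gene. Acsl1 is the main long-chain acyl-CoA synthetase of heart muscle, and rapamycin inhibits the growth kinase mTOR.

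PPAR alpha and PPAR delta are nuclear receptors that bind DNA as a pair with RXR and switch on genes of fatty acid use when fatty acids or their derivatives bind them. In heart they keep the machinery of fat burning at a high level, and their targets rise when fatty acids accumulate, as in fasting. Acyl-CoA synthetases such as Acsl1 make the fatty acyl-CoA that the thioesterases Acot1 and Acot2 split again into fatty acid and free CoA, Acot1 in the cytosol and Acot2 in mitochondria. Ucp2 and Ucp3 are carriers of the inner mitochondrial membrane, Angptl4 is a secreted inhibitor of lipoprotein lipase, Ehhadh is a bifunctional enzyme of peroxisomal beta-oxidation, and Vnn1 frees cysteamine from pantetheine.

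Acot1 and Acot2 lie on chromosome 12, and their near-identity bears on how each one was measured, so stretches of both coding sequences are shown (GENCODE M21 transcripts, GRCm38, 5′ to 3′). The coding sequences of 1260 bases (Acot1) and 1362 bases (Acot2) share 1180 of 1239 aligned bases, or 95.2%. Acot2 has 123 coding bases before the point where Acot1 starts, and these bases are given first. The next pair of lines holds the 90 bases that follow in both genes, with the 11 differences in capitals, and the last line holds the longest run without a difference, 273 bases that are the same in both.
Acot2 coding bases 1 to 123: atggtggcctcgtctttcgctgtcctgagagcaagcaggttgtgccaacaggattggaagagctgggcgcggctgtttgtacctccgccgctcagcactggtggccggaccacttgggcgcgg
Acot1 coding bases 1 to 90: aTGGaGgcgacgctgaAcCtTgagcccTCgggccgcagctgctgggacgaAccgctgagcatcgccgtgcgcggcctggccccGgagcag
Acot2 coding bases 124 to 213: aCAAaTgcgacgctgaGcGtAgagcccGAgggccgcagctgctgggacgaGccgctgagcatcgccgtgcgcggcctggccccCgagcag
Shared run: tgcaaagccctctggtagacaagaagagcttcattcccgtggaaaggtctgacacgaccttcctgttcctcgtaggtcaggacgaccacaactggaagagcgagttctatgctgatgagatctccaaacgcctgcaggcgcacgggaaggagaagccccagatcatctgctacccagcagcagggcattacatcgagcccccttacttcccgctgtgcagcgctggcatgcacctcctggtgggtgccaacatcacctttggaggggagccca

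Of all words of 50 bases in the Acot1 transcript, 33.2% also occur in transcripts of other genes, chiefly Acot2 and also Acot5, Acot3 and Acot6. In the Acot2 transcript the share is 27.7%, and in the other 5 members it is 0. The deposited values show the same division. The estimated reads of Ucp2, Ucp3, Angptl4, Ehhadh and Vnn1 were whole numbers, within 0.05, in 20 of 20 libraries, while those of Acot1 were whole in 1 library and those of Acot2 in 2, as happens where RSEM divides shared reads between genes. The single values of Acot1 and Acot2 are therefore uncertain, and their sum is given beside them.

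Ucp3, which lies on chromosome 7 as Ucp2 does, was the only one of the 5 members with a promoter window in hand (Acot1, Acot2, Ucp2, Ucp3 and Ehhadh) whose window held the hexamer AGGTCA, a core that many nuclear receptors bind. The direct repeat of that hexamer that PPAR and RXR bind was found in none of the 5. The window is the 250 bases before the gene's start, on the plus strand at chr7:100472741-100472990 (RefSeq, GRCm38.p6), with the matches in capitals.
Ucp3 promoter: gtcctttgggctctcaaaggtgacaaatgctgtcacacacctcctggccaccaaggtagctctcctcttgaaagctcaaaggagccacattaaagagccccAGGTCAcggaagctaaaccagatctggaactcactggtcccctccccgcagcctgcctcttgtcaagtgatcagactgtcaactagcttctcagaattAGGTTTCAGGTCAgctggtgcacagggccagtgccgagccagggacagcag
The hexamer occurs at bases -149 to -144 and -44 to -39. Its second copy is also the end of AGGTTTCAGGTCA at -51 to -39, a match to a relaxed repeat searched as AGG, any 4 bases, then AGGTCA. That relaxed form was chosen after this sequence was read. Both strands were searched, and among 32851 promoter windows of this length 14% hold the hexamer, 0.517% the relaxed repeat and 0.0335% the strict repeat of 2 hexamers with 1 base between them. A match describes these letters only and says nothing of binding in these hearts.

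Values are expression signals that the authors scaled so that every library's upper quartile is near 1000, and changes are log2 differences of value + 1, fitted with limma over 13548 tested genes. The implied depth was 11.5 to 21.1 M reads per library (median 15.2 M). The libraries came from 4 labelled pools of 5, each pool holding at least 1 library of every group, and the pools are called 1 to 4 as labelled. Library names give all libraries of a pool the same lane code, so pool and lane cannot be told apart. Pool 4 held 2 knockout rapamycin libraries and 1 of each other group. A difference within a pool thus rests on 1 or 2 libraries of each group. The share of all genes that went the same way in 4 of 4 pools was not counted. Control vehicle libraries 1 and 3 stood apart, at 73.4 and 84.6 on the first principal component where the other 18 ran from -41.7 to 19.3, and with long transcripts low against short ones (-0.98 and -1.08, others -0.42 to 0.53). Under vehicle the knockout mean of Acsl1 was 12.5% of the control mean, under rapamycin 9.68%, both without overlap (exact permutation test, two-sided, p = 0.00794 in each arm, the smallest that 5 against 5 libraries allow), so the genotype labels held. All 6 ventricular cardiomyocyte markers were detected, and atrial markers were present at levels given with the other cell type markers. In bulk tissue, fewer cells of a type and less RNA per cell cannot be told apart.

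None of the 6 members that could be tested passed the adjusted threshold in any comparison of the design, and the intervals leave room for changes that these groups could not show. Per kilobase of transcript, the mean level over the 20 libraries was 1191 ± 629 for Ucp3, 1189 ± 363 for Acot2, 823 ± 193 for Ucp2, 594 ± 219 for Acot1, 318 ± 232 for Angptl4, 149 ± 56.8 for Ehhadh and 2.20 ± 1.78 for Vnn1 (SD, n = 20, over all groups). Ucp3 and Acot2 were not ordered, with Ucp3 the higher in 9 of 20 libraries. Acot2 exceeded Ucp2 in 16 libraries, Ucp2 exceeded Acot1 in 14, Acot1 exceeded Angptl4 in 19 and Angptl4 exceeded Ehhadh in 17, and the ranges of each of these neighbours overlapped. Ehhadh exceeded Vnn1 in all 20 without overlap. This order depends on the length used, that of 1 GENCODE transcript per gene, which for Ucp2 is 3988 bases. Before division by length Ucp2 had the highest mean value, 3281, beside 2915 for Ucp3 and 2611 for Acot2.

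**Figure D1:**
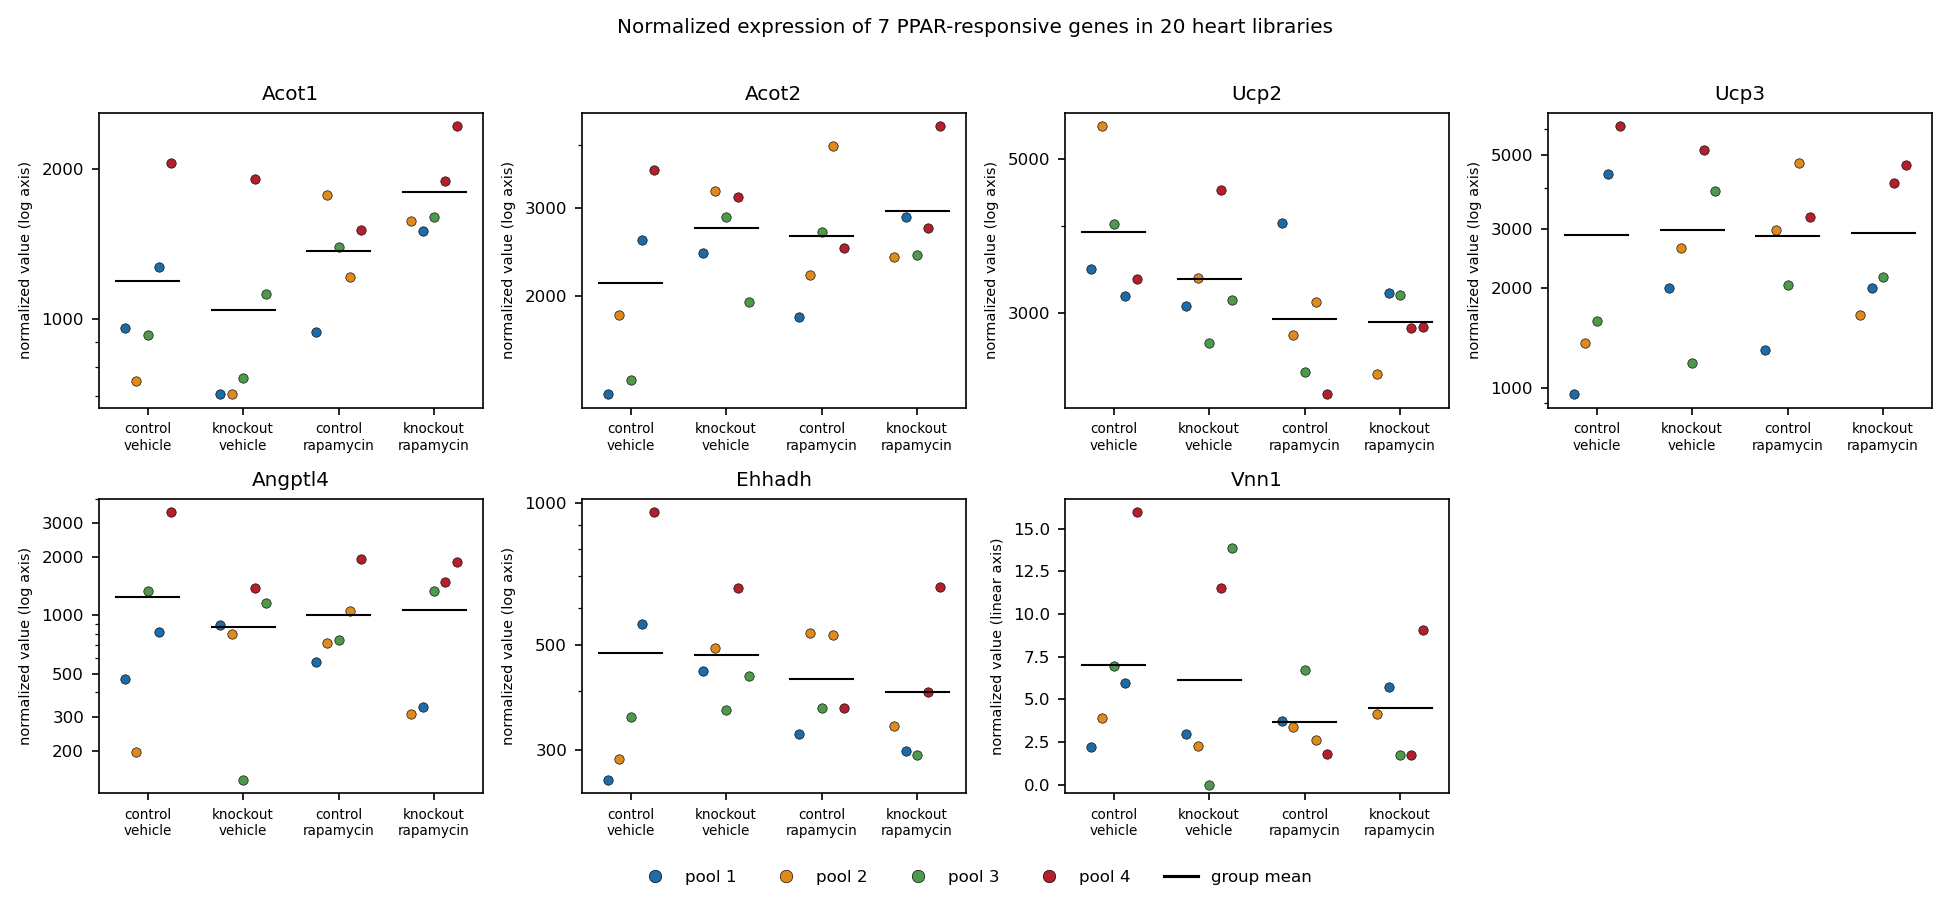
Normalized value of each member (vertical axis, logarithmic for 6 genes and linear for Vnn1) in the 4 groups (horizontal axis), with 1 point per library coloured by pool and a line at the group mean. The groups overlap for every gene, Angptl4 and Ucp3 spread widest within a group, and pool 4 libraries lie above the group mean for Acot1, Ucp3 and Angptl4 in 5 of 5 cases.

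Loss of Acsl1 under vehicle left all 6 tested members below the threshold: 0 of 6 were called, where 0.244% of all tested genes were (33 of 13548), and 0 of 6 had groups that did not overlap, against 2.32% of all genes. The members' median log2 change was -0.04, beside 0.07 over all genes, and without control vehicle 1 and 3 it was -0.24, beside 0.03. Under rapamycin the knockout comparison again called 0 of 6 members (0.0221% of all genes), none without overlap (0.878%), with a median of 0.02 beside -0.02. Rapamycin against vehicle called 0 of 6 members in control hearts, where limma called 0% of all genes, 14.9% of them (2024) had an unadjusted p under 0.05 and limma-voom on estimated reads called 0 too. In knockout hearts it called 0 of 6 (0.00738% of all genes). The members' medians were 0.20 in control and 0.06 in knockout hearts, beside 0.07 and -0.02 over all genes, and the median in control hearts was -0.18 without control vehicle 1 and 3. No member was without overlap in these drug comparisons either (1.46% and 1.85% of all genes). The difference between the genotype effects, the interaction, called 0 of 6 members and 0% of all genes, with 8.3% (1124) at an unadjusted p under 0.05, and limma-voom called 0 as well. Averaged over the injections the genotype effect called 0 of 6 (0.443% of all genes), and averaged over genotypes the rapamycin effect called 0 of 6 (0.125%).

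**Figure D2:**
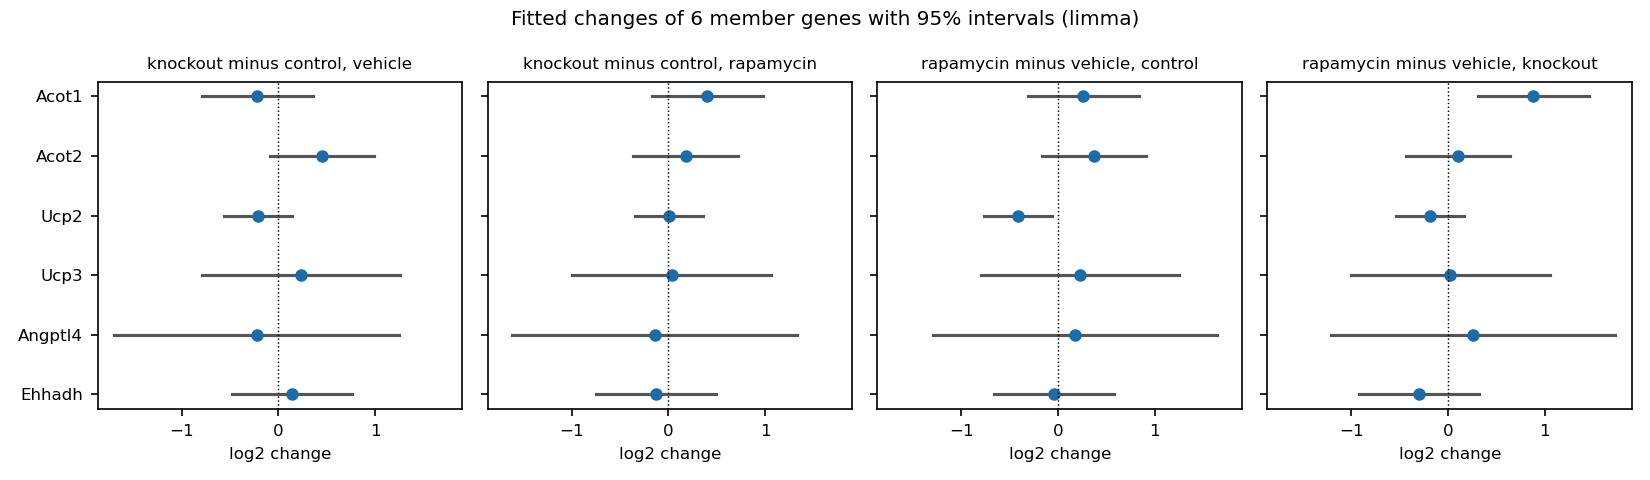
Fitted log2 change (horizontal axis) of the 6 tested members in 4 comparisons, with points for the estimate and lines for the 95% interval from limma. All intervals include 0 except Acot1 for rapamycin in knockout hearts (0.31 to 1.46) and Ucp2 for rapamycin in control hearts (-0.76 to -0.06), neither past the adjusted threshold, and those of Angptl4 and Ucp3 are widest.

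Acot1, the cytosolic thioesterase, gave the largest difference among the members. Its values in knockout hearts were 707.6, 706, 761, 1909 and 1121 under vehicle and 1574, 1502, 1601, 1893 and 2430.3 under rapamycin. Every knockout rapamycin library lay above 4 of the 5 knockout vehicle libraries, and knockout vehicle replicate 4, of pool 4, fell within the rapamycin range. Control hearts had 957, 752, 928, 1270.0 and 2049 under vehicle and 941, 1774, 1397, 1216 and 1510 under rapamycin, with wide overlap. Group means were 1191 ± 515 in control vehicle, 1041 ± 515 in knockout vehicle, 1367.5 ± 313 in control rapamycin and 1800.1 ± 383 in knockout rapamycin (SD, n = 5 each).

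In knockout hearts Acot1 was higher under rapamycin by 0.88 on the log2 scale (SE 0.27, 95% interval 0.31 to 1.46, adjusted p = 0.414), which did not pass. The interval excludes 0 before adjustment, as it did for the 5.71% of all genes with an unadjusted p under 0.05 in this comparison. Over 12 alternative fits that treat Acot1 as a gene of its own the adjusted p ran from 0.106 to 0.538. The difference was above 0 in 4 of 4 pools, at 1.09, 1.15, 0.79 and 0.17. In control hearts it was 0.26 (95% interval -0.31 to 0.83, adjusted p = 0.597 by limma) and above 0 in 2 of 4 pools. The interaction was 0.62 (95% interval -0.19 to 1.43, adjusted p = 0.525), so a different drug effect in the genotypes was not shown. Averaged over genotypes the difference was 0.57 (SE 0.19, adjusted p = 0.339). Knockout against control gave -0.22 under vehicle (95% interval -0.79 to 0.35, 0 of 4 pools above 0) and 0.40 under rapamycin (-0.17 to 0.98, 4 of 4 pools above 0). With a pool term in the fit these 2 differences were -0.25 and 0.26.

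Summing Acot1 with Acot2 moved these values by more than 1.5 times: the rapamycin difference in knockout hearts became 0.33 (adjusted p = 0.996) and the averaged one 0.33. The Acot1 share of the sum in knockout hearts was 22.5%, 17.9%, 20.9%, 37.7% and 36.6% under vehicle and 39.7%, 34.3%, 39.9%, 40.9% and 35.8% under rapamycin. The first 3 of these were the lowest shares of all 20 libraries, while the other 2 knockout vehicle libraries lay in the rapamycin range. The mean share was 36.4 ± 5.59% in control vehicle, 27.1 ± 9.30% in knockout vehicle, 34.8 ± 7.69% in control rapamycin and 38.1 ± 2.87% in knockout rapamycin (SD, n = 5 each). The share is computed from the Acot1 value itself, so a low Acot1 value lowers it by construction. Whether the authors' division of shared reads had a part in the low values of Acot1 in knockout vehicle hearts was not tested.

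Acot2, the mitochondrial thioesterase, showed the largest knockout difference under vehicle. Values were 1274, 1836, 1360, 2583 and 3571 in control vehicle and 2440, 3245, 2879, 3156 and 1946 in knockout vehicle hearts. The lowest 2 of these 10 values were control vehicle libraries 1 and 3, the pair that stood apart, and the highest was control vehicle 5. Under rapamycin the values were 1813, 2201, 2683, 3987 and 2490 in control and 2389, 2874, 2412, 2737 and 4353 in knockout hearts. The rapamycin groups overlapped over most of their range.

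The knockout difference of Acot2 under vehicle was 0.45 (SE 0.26, 95% interval -0.09 to 0.99, adjusted p = 0.222), and it was above 0 in 3 of 4 pools. Without control vehicle 1 and 3 it was 0.07 (adjusted p = 0.965), and without control vehicle 5 it was 0.67 with an adjusted p of 0.04997, the only refit of any member that passed. The refit without control vehicle 5 called 3089 genes in all, where 33 were called with every library, so passing there does not set Acot2 apart. Acot2 also varied with the long-against-short transcript score of the libraries (r = 0.852 over 20 libraries) and with the summed level of 6 endothelial markers (r = 0.824), and with that score in the fit the difference was -0.06. The endothelial sum ran from 10320.2 to 25340 in control vehicle and from 16571 to 22649 in knockout vehicle hearts, and its part in the result was not tested. Under rapamycin the knockout difference was 0.18 (95% interval -0.36 to 0.72), averaged over injections it was 0.31 (adjusted p = 0.306), and rapamycin against vehicle gave 0.37 in control and 0.10 in knockout hearts (-0.17 to 0.91 and -0.44 to 0.64).

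**Figure D3:**
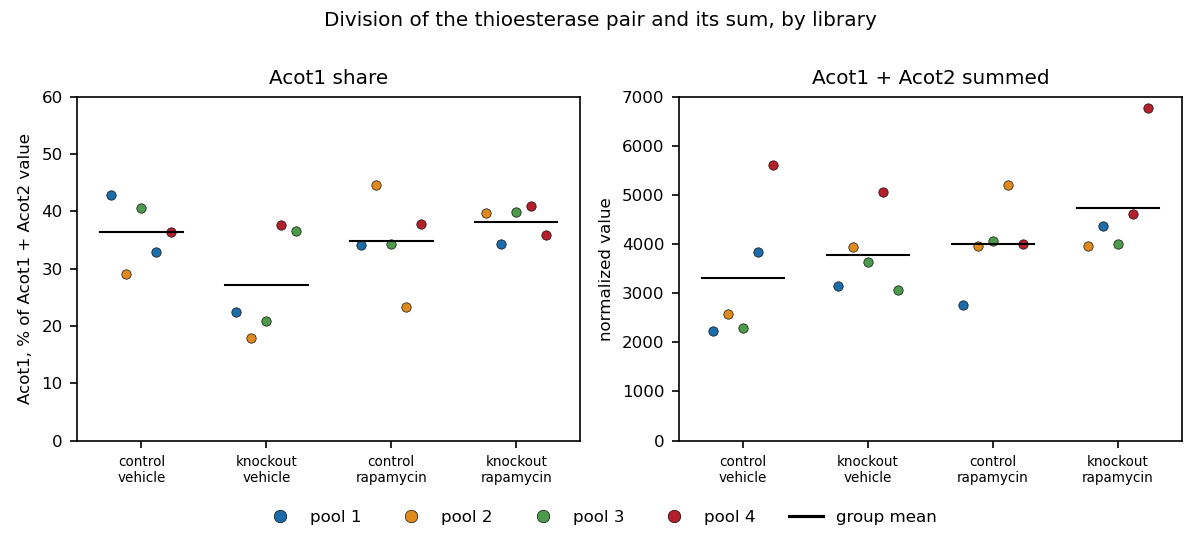
On the left, the Acot1 share of the summed Acot1 and Acot2 value in percent, and on the right that sum (both vertical axes linear from 0), by group, with 1 point per library coloured by pool and a line at the group mean. The Acot1 share is lowest in 3 knockout vehicle libraries (17.9% to 22.5%), and the sum overlaps between all groups.

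Of the uncoupling protein family, Ucp2 was the steadiest member and lay lower under rapamycin without passing the threshold. Its values were 3467, 5567, 4030.2, 3171 and 3351 in control vehicle and 4041, 2786, 2462, 3114 and 2288 in control rapamycin hearts. Control vehicle 2 was the highest of all 20 libraries, and 4 of 5 control rapamycin libraries lay below every control vehicle library. Knockout hearts had 3069, 3362, 2716, 4507 and 3126 under vehicle and 2452, 3208, 3179, 2856 and 2866 under rapamycin. The log2 difference between rapamycin and vehicle was -0.41 in control hearts (SE 0.17, 95% interval -0.76 to -0.06, adjusted p = 0.330), in the comparison where 14.9% of all genes had an unadjusted p under 0.05. It was below 0 in 3 of 4 pools, at 0.29, -0.92, -0.71 and -0.55. In knockout hearts it was -0.19 (-0.54 to 0.16), and averaged over genotypes -0.30 (SE 0.12, adjusted p = 0.440). Without control vehicle 2 the difference in control hearts was the smallest of the 10 refits that leave out 1 library, -0.28. Knockout against control gave -0.21 under vehicle (95% interval -0.56 to 0.14) and 0.01 under rapamycin (-0.34 to 0.36), where the plain mean was slightly lower in knockout hearts, at 2912 against 2938.

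Ucp3, the uncoupling protein of muscle and a standard PPAR target, had nearly the same mean in all groups: 2885 ± 2261 in control vehicle, 2982 ± 1583 in knockout vehicle, 2867 ± 1308 in control rapamycin and 2925 ± 1381 in knockout rapamycin (SD, n = 5 each). Its single values were 955, 1361, 1592, 4404 and 6115 in control vehicle and 1999, 2630.0, 1189, 5188 and 3903 in knockout vehicle hearts. Under rapamycin they were 1297, 2985, 2036, 4741 and 3274 in control and 1652, 2001, 2149, 4144 and 4677 in knockout hearts. Each group thus held both low and high hearts, and the range over all 20 was 6.40-fold. The knockout differences were 0.24 under vehicle (95% interval -0.79 to 1.26) and 0.03 under rapamycin (-0.99 to 1.06), and the rapamycin differences 0.23 in control (-0.80 to 1.25) and 0.02 in knockout hearts (-1.0 to 1.05). Both rapamycin differences are above 0 on the log2 scale, while the plain means were lower under rapamycin in both genotypes. Each of these intervals includes a rise of 1 log2 unit, so these data do not exclude a rise of that size.

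Angptl4, the secreted inhibitor of lipoprotein lipase, varied most. Its values were 471, 196, 1334, 826 and 3431 in control vehicle, and 889, 800.2, 141, 1380 and 1156 in knockout vehicle hearts. Under rapamycin they were 576, 719, 751, 1055 and 1948 in control and 309, 337, 1338, 1497 and 1882 in knockout hearts. The lowest value, in knockout vehicle 3, and the highest, in control vehicle 5, differed 24.3-fold, and every group had its highest value in a library of pool 4. The knockout differences were -0.22 under vehicle (95% interval -1.70 to 1.25) and -0.14 under rapamycin (-1.61 to 1.33). Rapamycin against vehicle gave 0.17 in control (-1.30 to 1.65) and 0.26 in knockout hearts (-1.22 to 1.73). The plain means ran the other way in 2 of these comparisons. In control hearts the mean was lower under rapamycin, at 1010.0 ± 553 against 1252 ± 1291, and under rapamycin it was higher in knockout hearts, at 1073 ± 712 (SD, n = 5 each).

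Ehhadh, which carries out the middle steps of peroxisomal beta-oxidation, had values of 259, 286, 353, 554 and 958 in control vehicle and 440.1, 492, 364, 659.7 and 429 in knockout vehicle hearts. Under rapamycin they were 323, 531, 367, 524 and 368 in control and 336, 298, 292, 399 and 662.5 in knockout hearts. Control vehicle hearts held both the lowest and the highest value, with the other groups inside that range. Knockout against control gave 0.14 under vehicle (95% interval -0.48 to 0.76) and -0.13 under rapamycin (-0.75 to 0.49), and under vehicle the plain mean was lower in knockout hearts, at 477 ± 112 against 482 ± 290.0 (SD, n = 5 each). Rapamycin against vehicle gave -0.04 in control (-0.66 to 0.58) and -0.30 in knockout hearts (-0.93 to 0.32), the latter below 0 in 4 of 4 pools at -0.56, -0.55, -0.43 and -0.36, with an adjusted p of 1.0.

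Vnn1, the pantetheinase, was barely detected and was not tested. It had 0 to 11 estimated reads per library (median 2), or values of 0 to 16.0, and was listed at 0 in knockout vehicle 3. Values above 10 occurred in control vehicle 5, knockout vehicle 4 and knockout vehicle 5. At this depth no difference between groups could be read from such values.

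The spread within groups set the members apart from each other more than the groups did. The standard deviation within groups, on the log2 scale, was 1.24 for Angptl4, 0.86 for Ucp3, 0.51 for Ehhadh, 0.47 for Acot1, 0.44 for Acot2 and 0.28 for Ucp2. Among all tested genes these rank at the 98.6th, 95.1st, 80.5th, 76.9th, 73.6th and 42.7th percentile. Angptl4 and Ucp3 were thus among the most variable genes from heart to heart within a group, and Ucp2 lay near the middle.

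Within groups, Acot1, Acot2, Ucp3, Angptl4 and Ehhadh were positively correlated from heart to heart, to very different degrees, and Ucp2 had no positive correlation with them. After the group mean was taken from each value, the 10 correlations among those 5 genes over 20 libraries had a median r of 0.731 (0.351 to 0.871), while the 5 correlations with Ucp2 lay between -0.159 and -0.111. Ucp3 and Ehhadh went together most closely (r = 0.871, rho = 0.887), followed by Acot2 with Ehhadh (r = 0.797, rho = 0.653) and Acot1 with Ucp3 (r = 0.784, rho = 0.806). Deviations of Acot2 also had an r of -0.844 with the first principal component and 0.817 with the long-against-short transcript score. For Ehhadh these were -0.514 and 0.428. Angptl4 was correlated with Ucp3 at r = 0.759 (rho = 0.762) and with Acot2 at 0.351 (rho = 0.308), and Acot1 with Acot2 at 0.482 (rho = 0.391). Single hearts went apart: knockout vehicle 3 had a deviation of -2.29 for Angptl4 beside 0.10 for Acot2, and control vehicle 3 had 0.72 for Angptl4 while the other 4 genes lay below their group means. These are descriptions over libraries that share the study's 4 pools and its scaling, and Acot1 and Acot2 also share reads.

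**Figure D4:**
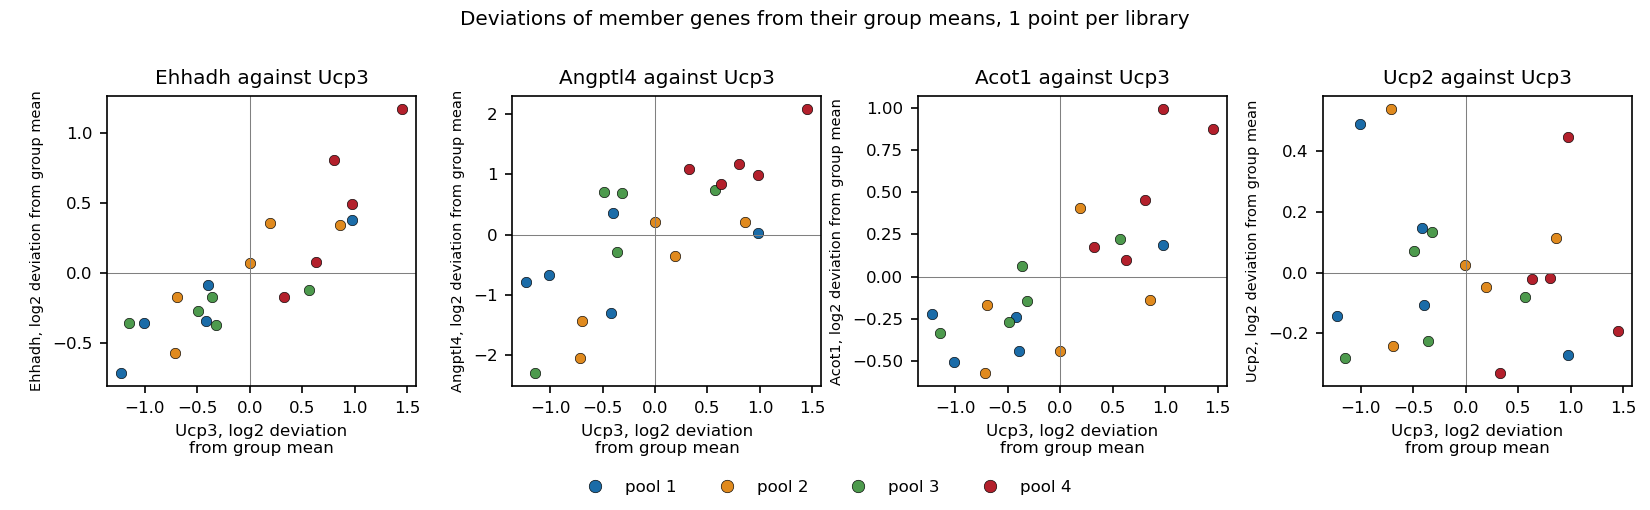
Log2 deviation of Ehhadh, Angptl4, Acot1 and Ucp2 from their group means (vertical axes) against that of Ucp3 (horizontal axis), with 1 point for each of 20 libraries coloured by pool. Ehhadh, Angptl4 and Acot1 rise with Ucp3 (r = 0.871, 0.759 and 0.784) with pool 4 at the upper right, and Ucp2 shows no such slope (r = -0.111).

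Libraries of pool 4 lay above their group mean in 5 of 5 cases for Acot1, Ucp3 and Angptl4, in 4 of 5 for Ehhadh, in 3 of 5 for Acot2 and in 1 of 5 for Ucp2. Their mean deviation was 0.52 for Acot1, 0.84 for Ucp3, 1.24 for Angptl4, 0.48 for Ehhadh, 0.32 for Acot2 and -0.02 for Ucp2. An F test of the pool beside the groups in limma gave unadjusted p of 0.00568 for Acot1, 0.0121 for Angptl4, 0.0197 for Ucp3 and 0.0283 for Ehhadh, with an adjusted p of 0.810 for each, and over all genes it called 0% (467 genes, or 3.45%, had an unadjusted p under 0.05). For Acot2 and Ucp2 the unadjusted limma p was 0.121 and 0.837. Outside pool 4, over 15 libraries, the median r among the 5 genes was 0.568 (-0.04 to 0.847), with Ucp3 and Ehhadh at 0.847, Acot1 and Acot2 at 0.07 and Acot2 and Angptl4 at -0.04. Over the same libraries the r of Ucp2 was -0.519 with Acot1, -0.307 with Ehhadh, -0.173 with Ucp3, -0.162 with Acot2 and -0.0904 with Angptl4.

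Read depth and some summed cell type markers rose with these 5 genes, to different degrees, while the ventricular cardiomyocyte sum had a negative r. For 6 endothelial markers the r between deviations was 0.798 for Acot2, 0.654 for Ucp3, 0.648 for Ehhadh, 0.493 for Acot1 and 0.344 for Angptl4. For the implied reads per library it was 0.619 for Acot2, 0.560 for Ehhadh, 0.445 for Ucp3, 0.306 for Angptl4 and 0.301 for Acot1. For 7 macrophage and leukocyte markers it was 0.823 for Acot1, 0.661 for Ucp3, 0.635 for Angptl4, 0.590 for Ehhadh and 0.437 for Acot2. With group means left in, the r with this sum was 0.286 for Acot1, 0.537 for Ucp3, 0.409 for Angptl4, 0.541 for Ehhadh and 0.426 for Acot2. For 6 ventricular cardiomyocyte markers the r between deviations was -0.747 for Acot2, -0.497 for Ucp3, -0.402 for Ehhadh, -0.23 for Acot1 and -0.0887 for Angptl4. Acot2 also had an r of 0.617 with the skeletal muscle sum and -0.615 with the brown adipocyte sum. Of the 3 genes in the brown adipocyte sum only 1 passed the filter on low values, and 1 was at 0 in every control rapamycin library. That sum therefore does not show the presence of brown adipocytes. The endothelial sum ran from 15155 to 24511 in control rapamycin and 17873 to 27523 in knockout rapamycin hearts, beside the vehicle ranges given with Acot2. The macrophage and leukocyte sum ran from 6507 to 8369 in control vehicle, 7678 to 13407 in knockout vehicle, 6168 to 8329.5 in control rapamycin and 6330.4 to 9732 in knockout rapamycin hearts. No ventricular cardiomyocyte, endothelial, macrophage or leukocyte marker was at 0 throughout a group. The part of these cells and of depth in the shared variation was not tested.

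The genes most like each member, by Pearson r of log2 values over 20 libraries among 10337 genes with a mean of at least 100, were as follows. Ucp3 was closest to Slc25a22, a mitochondrial glutamate carrier (r = 0.928), then to Ehhadh (0.834) and Zswim4 (0.809). Ehhadh was closest to Ucp3, Slc25a22 (0.790) and Zfyve1 (0.781). Both members thus had each other and the same carrier among their nearest 3 genes. Angptl4 was closest to Cldn5, a tight junction protein of endothelium (0.833), to Ctnnbl1 (0.776) and to Pdk4, the PPAR-responsive kinase that blocks pyruvate oxidation (0.764). Acot1 was closest to the histone deacetylase gene Hdac5 (0.831), Rbpms (0.805) and Evl (0.796), and Ucp2 to Slc25a12, the mitochondrial aspartate-glutamate carrier (0.776), Snd1 (0.734) and 9030617O03Rik (0.732). For Acot2 the nearest were Sart3 (0.938), Map3k3 (0.935) and Ubtf (0.934), but 5% of all genes compared reached 0.834 with Acot2, against 0.408 to 0.553 for the other members.

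Related genes were read from lists of the members' pathways. Knockout against control under vehicle and rapamycin against vehicle in control hearts share the control vehicle group, with its libraries 1 and 3 that stood apart, so both values are given, and the medians without those libraries. Values of single genes are given with those libraries included. Of each list, the 2 smallest p for the knockout under vehicle were picked, so a small p among the named genes partly reflects that choice. In that comparison Nudt8 had an unadjusted limma p of 0.0478 and an adjusted p of 0.154. Many of all tested genes thus had a p as small, and an adjusted p near 0.1 does not set a gene apart. Of the receptors and their partners, PPAR receptors, RXRs and cofactors, 18 of 18 were tested and 0 called in any of the 7 comparisons. Their median log2 change was 0.45 for knockout against control under vehicle, beside 0.07 over all genes, and 0.10 under rapamycin, beside -0.02. For rapamycin against vehicle in control hearts it was 0.35, beside 0.07. Without control vehicle 1 and 3 the median was 0.00097 for the knockout under vehicle and -0.03 for rapamycin in control hearts, beside 0.03 and 0.04 over all genes. Under vehicle the smallest p belonged to Med1, a Mediator subunit that binds nuclear receptors (0.56, adjusted p = 0.0986), and Nrip1, a corepressor of nuclear receptors (0.87, adjusted p = 0.108). The most abundant, Lpin1, a phosphatidate phosphatase that also acts as a PPAR coactivator, had 0.19 (adjusted p = 0.351).

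Other thioesterases numbered 10 tested of 14, with 0 called in any comparison and a median of -0.12 for knockout against control under vehicle. The peroxisomal thioesterase Acot8 had -0.52 (adjusted p = 0.104), Acot7 -0.21 (0.135, adjusted) and the abundant mitochondrial Acot13 -0.41 (0.208, adjusted). Uncoupling and nucleotide carriers numbered 5 tested of 7, also with 0 called. Slc25a4, the heart's ADP/ATP carrier, had -0.36 (adjusted p = 0.203) and Slc25a30 -0.25 (adjusted p = 0.407). The list's median was -0.22. For rapamycin in control hearts the medians of these lists were -0.25 and -0.24. Without control vehicle 1 and 3 they were -0.04 and -0.03 for the knockout under vehicle and -0.07 and 0.05 for rapamycin in control hearts.

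Peroxisomal beta-oxidation genes, the pathway of Ehhadh, were all tested (19 of 19), with 0 called in any comparison and a median of 0.20 for knockout against control under vehicle. Scp2, a sterol carrier with a thiolase form, had 0.49 (adjusted p = 0.0974), Phyh, which starts the oxidation of phytanic acid, 0.34 (adjusted p = 0.104), and the abundant Crat, carnitine acetyltransferase, 0.27 (adjusted p = 0.147). Genes of peroxisome assembly (16 of 16 tested, 0 called) had a median of -0.25 in the same comparison. Pex16 had -0.71 (adjusted p = 0.0892), Pex6 -0.46 (adjusted p = 0.0954) and Pex19 -0.38 (adjusted p = 0.136). Members of both sets went both ways under vehicle, from -0.30 to 0.90 for beta-oxidation and from -0.71 to 0.47 for assembly, and the median of all genes was 0.07. Under rapamycin the knockout medians were 0.05 and -0.04, beside -0.02 over all genes. For rapamycin in control hearts they were -0.05 and -0.19, beside 0.07. Without control vehicle 1 and 3 the medians for the knockout under vehicle were 0.13 and -0.05, beside 0.03 over all genes, and for rapamycin in control hearts -0.02 and 0.0069, beside 0.04.

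Around Angptl4, 9 of 11 genes of lipoprotein lipase handling and of the angiopoietin-like family were tested and 0 called, with a median of -0.04 under vehicle. Lpl, the lipase itself, had 0.49 (adjusted p = 0.217), Gpihbp1, which anchors it to capillaries, -0.66 (adjusted p = 0.0898), and Lmf1, which helps it to fold, -0.43 (adjusted p = 0.106). Around Vnn1, 12 of 13 genes of pantetheine and CoA handling were tested and 0 called. Their median was -0.02 under vehicle, and the CoA hydrolases Nudt19, Nudt7 and Nudt8 had -0.57, -0.37 and -0.47 (adjusted p = 0.122, 0.131 and 0.154). For rapamycin in control hearts the medians of these lists were 0.06 and -0.18, and -0.09 and -0.03 without control vehicle 1 and 3. Without those libraries the medians for the knockout under vehicle were -0.03 and 0.03.

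Of PPAR targets in uptake, carnitine transport and mitochondrial use, which border on the members' roles, only single genes are given and no count is drawn over the set. For knockout against control under vehicle, Acadm and Etfdh, of mitochondrial oxidation, had log2 changes of 0.39 and 0.40 (adjusted p = 0.0918 and 0.0974), and Fabp3, the abundant fatty acid binding protein, had -0.12 (adjusted p = 0.669). None of these 3 passed the threshold.

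Cell type markers differed between groups for some lists. Atrial markers had the largest shift under vehicle and none was called. Of these, 4 of 5 were tested, with log2 changes for knockout against control from 2.45 to 5.20 (median 4.32). Their sum ran from 1358 to 6056 in control vehicle, 4141 to 63604 in knockout vehicle, 1521 to 34775 in control rapamycin and 8105 to 58970 in knockout rapamycin hearts. Its deviations had an r of -0.435 with Acot2, 0.272 with Ucp2 and between -0.101 and 0.114 with the other 4 tested members. For rapamycin in control hearts the atrial median was 2.84, and without control vehicle 1 and 3 the medians were 4.24 and 2.74. Of 6 fibroblast markers, Pdgfra (0.83, adjusted p = 0.0391) and Dcn (0.44, adjusted p = 0.0422) were higher with loss of Acsl1 averaged over injections, and the fibroblast sum ran from 20391 to 24619 in control vehicle and 26439 to 50100.3 in knockout vehicle hearts. The haemoglobin transcripts Beta-s (-2.0, adjusted p = 0.0289) and Hba-a2 (-1.80, adjusted p = 0.0404) were lower in knockout vehicle hearts. Without control vehicle 1 and 3, limma called 0 fibroblast and 0 erythroid markers in these comparisons. The fibroblast median, averaged over injections, was then 0.40, against 0.47 with all libraries. For erythroid markers under vehicle the median was -1.26, against -1.67. The fibroblast sum correlated with the members' deviations at 0.258 for Acot1, 0.139 for Acot2, 0.0313 for Ucp2, 0.495 for Ucp3, 0.493 for Angptl4 and 0.372 for Ehhadh. The part of these cells in the members' values was not tested.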

How the data were processed

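Each gene has a deposited signal value, which the authors made from RSEM estimates by scaling every library to a common upper quartile. Per the submitters' processing notes mm9 was the build and the tools included SAMtools, RSEM and Picard 1.64; the aligner is not given in the sources used here. Implied reads come from the step of values below 100, of which 85.8% to 88.4% per library were whole within 0.05. All 20 libraries entered 1 model with a mean per group on log2(value + 1) (limma 3.58.1, R 4.3.3, intensity trend, Benjamini-Hochberg, threshold 0.05), for genes with a value of at least 10 in at least 5 libraries. The scripts were tested on simulated data. The members, lists and tests were chosen with earlier results of these data known. All members were named; of each list, called genes, the 2 smallest p under vehicle and the most abundant gene were named. The design text states 5 biological replicates per condition; p-values measure the spread between these. Transcript lengths came from GENCODE M21. Alternatives were pseudocounts of 0.5 and 10, other filters, quantile and median-ratio scaling, a pool term, a replicate block, the compared groups alone, array weights, a long-against-short covariate, leaving out libraries and, added after seeing the data, Acot1 and Acot2 summed, limma-voom and an F test of the pool. 1 gene of the list of PPAR targets in uptake, carnitine transport and mitochondrial use is not reported here, so that list has no counts.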

Additional observations from a re-analysis of the deposited data

Results flagged for a closer look

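In knockout rapamycin hearts, replicate 5 was far above the other 4 libraries for both Acot2, at 4353 against 2389 to 2874, and Ehhadh, at 662.5 against 292 to 399. These were 2 of the 28 gene and group pairs examined by the gap of the end value over the range, and chance flags about 1 in 20 groups. Both flags fall on the same library, which belongs to pool 4. Its long-against-short transcript score was 0.39, within the range of the other libraries.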

How the results depend on the processing

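No member was called under the alternative fits that keep all libraries or leave out control vehicle 1 and 3. The number of members called for knockout against control under vehicle ran from 0 to 1 when single libraries were left out, the 1 being Acot2 without control vehicle replicate 5, where the count of all genes called rose from 33 to 3089. That count ran from 3 to 56 over the other alternatives and from 8 to 3089 without 1 library; it was 0 to 234 for rapamycin in knockout hearts (1), 2 to 14 for the knockout under rapamycin (3), 11 to 131 for the averaged genotype effect (60) and 0 to 328 for the averaged rapamycin effect (17). The cause was not tested. Replicate numbers did not pair the libraries (r of -0.515 to 0.272 between same-numbered deviations); a replicate block called 0 members and left the log2 changes as they were, with adjusted p = 0.189 for Acot2 under vehicle, and 49 genes in place of 33. Quantile scaling moved the median of all genes for the knockout under vehicle from 0.07 to -0.04. Of 42 member changes, 530 alternative fits gave another sign in 44 cases and 600 fits without 1 library in 65, all for changes that were not called.

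For knockout against control under vehicle the changed signs were 0.26 for Acot1 summed with Acot2; -0.064 for Acot2, -0.12 for Ucp3 and -0.17 for Ehhadh with the long-against-short covariate; -0.34 for Ucp3 and -0.19 for Ehhadh without control vehicle libraries 1 and 3; and -0.11 for Ucp3 and 0.082 for Angptl4 with array weights. Under rapamycin Ucp3 was -0.16 with a pool term, -0.062 with array weights and -0.027 with the covariate. For rapamycin in control hearts Acot2 was -0.014 without control vehicle 1 and 3 and -0.019 with the covariate, and Ucp3 was -0.20 with array weights, -0.34 without those libraries and -0.044 with the covariate. In knockout hearts a pool term gave -0.012 for Acot2, -0.22 for Ucp3 and -0.018 for Angptl4, and array weights gave -0.16 for Ucp3 and -0.28 for Angptl4. The interaction of Acot1 was -0.013 when summed. Without 1 library, the knockout change under vehicle ran from -0.47 to 0.00012 for Acot1, -0.070 to 0.60 for Ucp3, -0.73 to 0.35 for Angptl4 and -0.042 to 0.43 for Ehhadh. Under rapamycin it ran from -0.073 to 0.13 for Ucp2, -0.22 to 0.25 for Ucp3 and -0.44 to 0.22 for Angptl4. The rapamycin change in control hearts ran from -0.080 to 0.59 for Ucp3, -0.34 to 0.69 for Angptl4 and -0.22 to 0.25 for Ehhadh, and in knockout hearts from -0.050 to 0.17 for Acot2, -0.26 to 0.27 for Ucp3 and -0.31 to 0.61 for Angptl4. Depth leaves Vnn1 untested, and its part in the spread of the other members was not tested.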
